A study of Mus musculus with 15 samples.

Results

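The CXC chemokines are small secreted or membrane-anchored proteins that steer leukocytes, named for the spacing of their conserved cysteines. Here 7 of them were followed, Cxcl1, Cxcl2, Cxcl9, Cxcl10, Cxcl13, Cxcl14 and Cxcl16, chosen by gene symbol among the 19456 genes of the count table. All 7 passed the low-count filter that 15802 genes passed. RNA was sequenced from sorted cells of wild-type adult male C57BL/6 mice, in 15 libraries of 4 populations. Macrophages of the small intestine came as 3 subsets with 4 libraries each, carrying neither protein (Tim-4-CD4-), CD4 alone (Tim-4-CD4+) or both (Tim-4+CD4+), and where 3 subset values stand together they follow that order. Blood Ly6Chi monocytes, the circulating cells that can replenish gut macrophages, gave 3 libraries. No mouse carried a transgene, deletion or treatment. Each library pooled 3 mice, except monocyte replicate 2, which pooled 4. Macrophages were released by enzymatic digestion of the gut, with lamina propria and muscle layers left in 1 preparation, whereas the blood was not digested, so population, tissue and digestion cannot be told apart in any comparison with monocytes.

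These genes fall into groups by receptor. Cxcl1 and Cxcl2 bind CXCR2 and draw neutrophils. Cxcl9 and Cxcl10 are classic interferon-inducible ligands of CXCR3 on T and NK cells. Cxcl13 binds CXCR5 and organizes B cell follicles, Cxcl14 is made by many epithelia and fibroblasts and has a less settled receptor biology, and Cxcl16 is a membrane-anchored ligand of CXCR6 that also acts as a scavenger receptor. In the gut, macrophages lie beneath the epithelium and around vessels and nerves, where such signals reach recruited cells.

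The libraries held 39388763 to 151510641 counts (median 63249039). Levels are given as CPM, counts per 1e6 after scaling of the libraries by the trimmed mean of M values (TMM). The sort markers followed the labels. Timd4, which encodes Tim-4, lay between 337 and 390 CPM in the Tim-4+CD4+ libraries and at or under 4.47 CPM in all others. Cd4 lay between 484 and 924 CPM in both CD4+ subsets and between 14.6 and 39.2 CPM in Tim-4-CD4-. The macrophage libraries also held transcripts of other gut cells. The sum of 6 B and plasma cell markers was 239 to 428 CPM against 8.46 to 10.5 CPM in monocytes, and the sum of 7 mesenchymal markers was 61.7 to 143 CPM against 1.41 to 2.20 CPM. In sorted bulk RNA, fewer cells of a type and less RNA per cell cannot be told apart.

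On GRCm38 with GENCODE M21 gene models, 5 of the 7 genes lay on chromosome 5. Cxcl1 (chr5:90891241-90893115, plus strand) and Cxcl2 (chr5:90903871-90905938, plus strand) were 10.8 kb apart, in the cluster that also holds Cxcl3, Cxcl5, Pf4 and Ppbp. Cxcl9 (chr5:92321347-92328079) and Cxcl10 (chr5:92346638-92348889), both on the minus strand, were 18.6 kb apart beside Cxcl11. Cxcl13 lay alone at chr5:95956951-95961068 on the plus strand. Cxcl14 lay at chr13:56288643-56296551 and Cxcl16 at chr11:70453983-70459984, both on the minus strand. Exons of Art3 on the plus strand ran into the Cxcl10 gene body and exons of Zmynd15 into that of Cxcl16. The strand setting of the read count is not given in the sources used here, so reads of these overlaps could belong to either gene.

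The stretches before the start sites are shown for Cxcl1, Cxcl2 and Cxcl3, neighboring CXCR2 ligands that gave different calls between subsets, and for the interferon-inducible pair. Each holds 220 bases, from position -250 to -31 relative to the RefSeq start site on GRCm38.p6. Capitals mark matches to the NF-kB motif (kB), the binding site of NF-kB, or to the interferon-stimulated response element (ISRE, 2 copies of GAAA with 2 bases between them), searched on both strands.
Cxcl1: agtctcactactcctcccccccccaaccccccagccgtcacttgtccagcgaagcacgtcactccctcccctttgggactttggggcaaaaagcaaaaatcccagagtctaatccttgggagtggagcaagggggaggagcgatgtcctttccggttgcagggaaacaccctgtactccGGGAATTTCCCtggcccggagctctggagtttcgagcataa
Cxcl2: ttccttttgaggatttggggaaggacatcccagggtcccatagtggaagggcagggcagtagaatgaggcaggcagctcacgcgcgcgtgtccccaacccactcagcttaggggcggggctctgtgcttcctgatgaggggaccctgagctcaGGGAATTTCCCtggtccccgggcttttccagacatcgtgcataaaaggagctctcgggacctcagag
Cxcl3: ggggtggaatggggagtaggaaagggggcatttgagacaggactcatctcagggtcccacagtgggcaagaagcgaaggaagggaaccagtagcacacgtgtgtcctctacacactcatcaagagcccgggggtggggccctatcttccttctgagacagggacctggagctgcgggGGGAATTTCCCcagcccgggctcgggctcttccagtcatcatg
Cxcl9: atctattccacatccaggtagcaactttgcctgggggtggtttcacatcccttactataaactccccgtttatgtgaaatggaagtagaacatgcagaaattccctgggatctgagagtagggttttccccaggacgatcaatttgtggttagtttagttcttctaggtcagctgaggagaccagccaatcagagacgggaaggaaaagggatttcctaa
Cxcl10: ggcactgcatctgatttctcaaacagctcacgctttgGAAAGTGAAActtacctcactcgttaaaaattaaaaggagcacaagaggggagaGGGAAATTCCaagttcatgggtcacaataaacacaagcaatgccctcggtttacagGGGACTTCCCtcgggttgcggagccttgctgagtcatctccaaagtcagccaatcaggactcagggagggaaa

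The windows are chr5:90890995-90891214 for Cxcl1, chr5:90903649-90903868 for Cxcl2 and chr5:90785851-90786070 for Cxcl3 on the plus strand, and chr5:92328110-92328329 for Cxcl9 and chr5:92348920-92349139 for Cxcl10 on the minus strand. Cxcl1, Cxcl2 and Cxcl3 held the same run, GGGAATTTCCC, in which a match on each strand overlaps. Cxcl10 held kB matches at -159 and -103 and an ISRE match at -213, and no match to either motif lay in the Cxcl9 window. Windows were at hand for 6 of the 7 genes, and 3 of those 6 held a kB match and 2 an ISRE match, Cxcl10 and Cxcl14. Among 32851 windows of the same length, 3.45% held a kB match and 2.63% an ISRE match. A match is a string of letters and says nothing of binding in these cells.

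All 7 chemokines were higher in each macrophage subset than in blood monocytes, and no library of a subset overlapped a monocyte library for any of them. Of all genes tested, 67.6%, 70.1% and 68.7% likewise did not overlap with monocytes in the 3 subsets. The comparison sets a circulating cell beside cells resident in tissue. In monocytes, Cxcl10 was the leading member and Cxcl13 was not detected. Of the 7 members, 7 passed the test as higher in Tim-4-CD4- (background: 65.4% of all genes tested were called and 37.3% were higher). The same 7 passed in Tim-4-CD4+ (background 69.8% and 39.1%), and also in Tim-4+CD4+ (background 70.9% and 39.5%). Their median log2 fold changes over monocytes were 8.01, 8.14 and 8.16 with Cxcl13 set to its lower bound. The fitted value of Cxcl13, which had no monocyte count, would by itself move the last of these to 10.39. These stand beside medians of 0.08, 0.11 and 0.10 over all genes tested, or -0.05, -0.01 and 0 on unscaled library totals. The 3 comparisons share the monocyte libraries.

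**Figure D1:**
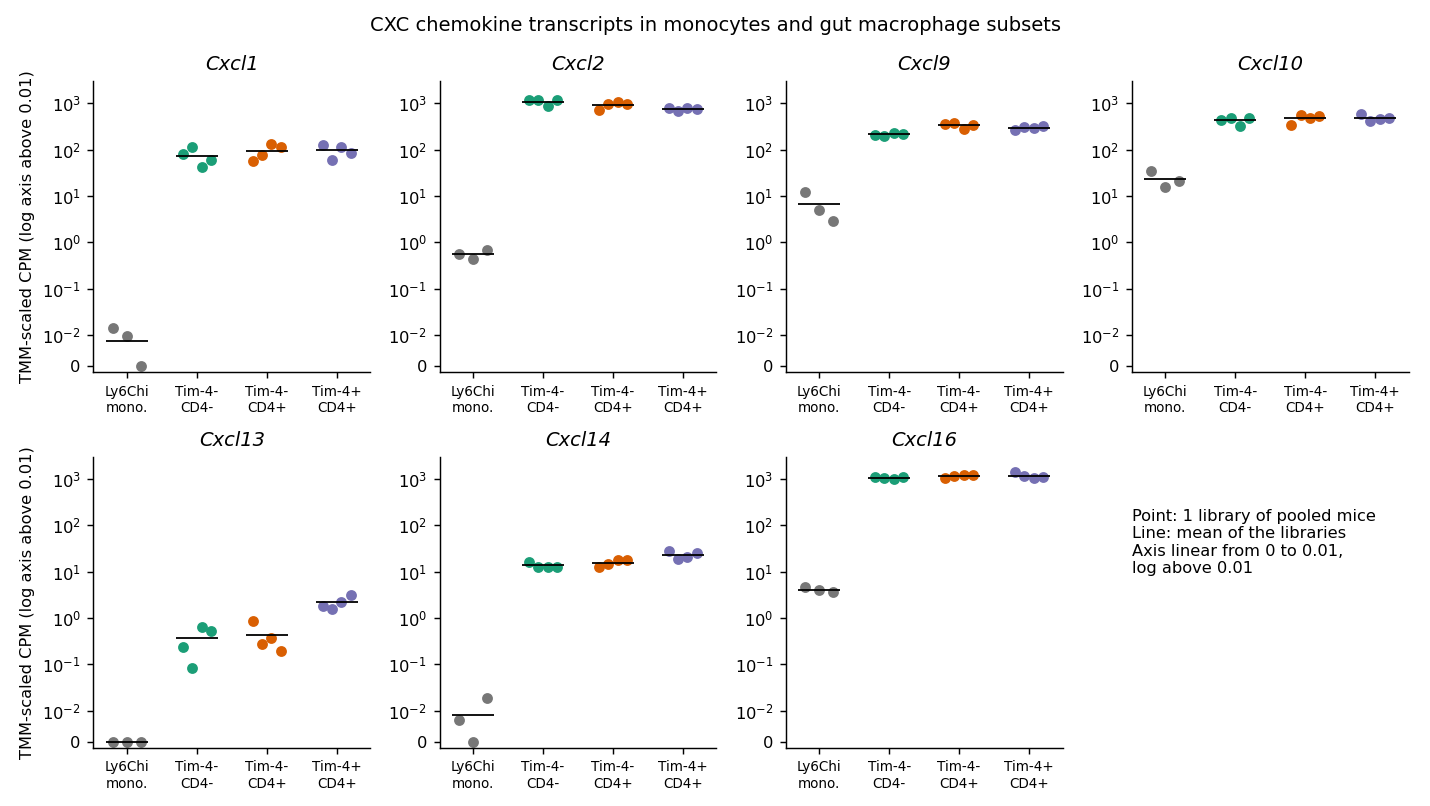
CPM of the 7 chemokines on the y axis (TMM-scaled, log above 0.01 and linear below it) in the 4 populations on the x axis. Points are libraries and lines are means of 3 monocyte or 4 macrophage libraries, and in every panel all macrophage points lie above all monocyte points.

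Cxcl2 and Cxcl1, the CXCR2 ligands, lay under 1 CPM in every monocyte library and far above it in every macrophage library. Cxcl2 stood at 0.545, 0.438 and 0.687 CPM in the 3 monocyte libraries. It stood at 1148, 1146, 864 and 1176 CPM in Tim-4-CD4- macrophages, at 714, 974, 1042 and 954 CPM in Tim-4-CD4+ and at 803, 669, 804 and 737 CPM in Tim-4+CD4+. Tim-4-CD4- replicates 1, 2 and 4 were thus the highest of all libraries, and all Tim-4+CD4+ libraries lay under every Tim-4-CD4- library. The log2 fold changes over monocytes were 10.96 (SE 0.24), 10.73 (SE 0.23) and 10.44 (SE 0.23) in the 3 subsets. Cxcl1 had 2, 1 and 0 counts in the monocyte libraries. In macrophages it stood at 81.2, 112, 42.3 and 60.8 CPM in Tim-4-CD4-, at 56.2, 77.1, 130 and 113 CPM in Tim-4-CD4+ and at 126, 60.6, 115 and 83.5 CPM in Tim-4+CD4+. The 3 subsets overlapped, and the coefficient of variation within a subset was 31.0 to 40.3%. The ratio of pooled counts to monocytes was 7682 (95% interval 2628 to 37260, exact binomial, counting error only) in Tim-4-CD4-. It was 10210 (3493 to 49510) in Tim-4-CD4+ cells, and 9355 (3201 to 45370) in those with both proteins.

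The monocyte difference came with a difference in genes that respond to cell handling. The sum of 12 immediate early and dissociation genes, such as Fos, Jun and Egr1, was 1082 to 1368 CPM in monocytes and 30660 to 44570 CPM across the macrophage libraries. Of the 12, 12 were called higher in each subset (background 37.3%, 39.1% and 39.5% called higher). The sum of 12 NF-kB components and targets was 1114 to 1184 CPM in monocytes and 7352 to 11920 CPM in macrophages. Their part in the chemokine differences was not tested.

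Cxcl2 was lower in Tim-4+CD4+ than in Tim-4-CD4- macrophages. It fell by 0.52 on the log2 scale (SE 0.13, adjusted p = 0.0075), with means of 1083 ± 147 and 753 ± 64.3 CPM (SD, n = 4 each). The call held under all 15 alternatives, with adjusted p between 0.0019 and 0.032. Tim-4-CD4+ lay between them at 921 ± 143 CPM and passed the test against neither (log2 fold change -0.23, SE 0.13, adjusted p = 0.31 against Tim-4-CD4-, and that of Tim-4+CD4+ against it -0.29, SE 0.13, adjusted p = 0.31). For Cxcl1 the log2 fold changes between subsets were 0.34 (95% interval -0.30 to 0.98) for Tim-4-CD4+ against Tim-4-CD4-, 0.38 (-0.26 to 1.02) for Tim-4+CD4+ against Tim-4-CD4- and 0.03 (-0.60 to 0.67) for Tim-4+CD4+ against Tim-4-CD4+. None passed, with adjusted p of 0.55, 0.39 and 0.97.

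Genes of the NF-kB list were also lower in Tim-4+CD4+ than in Tim-4-CD4-, though their steps between subsets differed from those of Cxcl2. Of 12 tested, 7 were called lower in Tim-4+CD4+ than in Tim-4-CD4- and 0 higher (background 23.1% called in either direction), with a list median of -0.38 beside -0.00 over all genes. They were Nfkb1, Nfkb2, Rela, Nfkbia, Nfkbiz, Tnf and Icam1. Nfkbiz, a nuclear NF-kB regulator, fell by 0.76 (SE 0.10, adjusted p = 4.3e-05) and Nfkbia, which encodes an NF-kB inhibitor, by 0.77 (SE 0.16, adjusted p = 0.0018). The CC chemokines Ccl3 and Ccl4 had log2 fold changes of -0.01 and -0.18 and did not pass. In Tim-4-CD4+ against Tim-4-CD4-, where Cxcl2 was not called, 5 of the 12 were already lower and 0 higher (median -0.35, background 10.1%). Between the CD4+ subsets 0 of the 12 were called (median -0.04, background 3.41%), while Cxcl2 differed there by -0.29 without passing. The summed list lay at 9954 to 11920, 7814 to 9713 and 7352 to 8409 CPM in the 3 subsets. Of the 12 immediate early genes, 3 were called lower in Tim-4+CD4+ than in Tim-4-CD4-, a share near that background, namely Egr1 (-0.65), Ier2 (-0.65) and Atf3 (-0.47). Of 6 dendritic cell markers, 3 were called lower in the same comparison, Flt3 (-3.90), Itgae (-2.12) and Ccr7 (-1.95). Clec9a, Xcr1 and Zbtb46 were not called there. Clec9a, the most abundant on that list, averaged 29.2, 25.6 and 27.4 CPM in the 3 subsets. Flt3 averaged 8.65 CPM in Tim-4-CD4- (4.41 to 17.9, median 6.17) and 0.572 CPM in Tim-4+CD4+ (0.415 to 0.798). Itgae in Tim-4-CD4- ran from 3.21 to 24.7 CPM (median 5.26), so these means lean on their highest libraries. The 6 summed to 43.2 to 89.7, 30.8 to 39.1 and 29.5 to 45.8 CPM, and none was at 0 in any subset. The 4 monocyte markers summed to 554 to 828, 74.9 to 132 and 13.4 to 24.8 CPM, and Ccr2 and Plac8 among them were called lower in both CD4+ subsets than in Tim-4-CD4-. The part of any of these in the Cxcl2 difference was not tested.

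The CXCR3 ligands were already present in monocytes. Cxcl10 stood at 33.7, 15.2 and 21.0 CPM there, and Cxcl9 at 11.97, 4.83 and 2.90 CPM, so monocyte replicate 1 was the highest for both. In macrophages Cxcl10 stood at 431, 470, 322 and 478 CPM in Tim-4-CD4-, at 338, 557, 489 and 530 CPM in Tim-4-CD4+ and at 573, 407, 447 and 484 CPM in Tim-4+CD4+. These ranges overlapped. The log2 fold changes over monocytes were 4.19, 4.36 and 4.36 (SE 0.27 each). Between subsets they were 0.17 (95% interval -0.29 to 0.63), 0.17 (-0.29 to 0.63) and -0.00 (-0.46 to 0.46), with adjusted p of 0.71, 0.62 and 1.00.

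Cxcl9 was lowest in the subset without Tim-4 and CD4. It stood at 207, 197, 230 and 218 CPM in Tim-4-CD4-, at 348, 372, 275 and 344 CPM in Tim-4-CD4+ and at 270, 309, 285 and 317 CPM in Tim-4+CD4+. Every library of both CD4+ subsets exceeded every Tim-4-CD4- library. The log2 fold changes over Tim-4-CD4- were 0.65 (SE 0.26, adjusted p = 0.14) in Tim-4-CD4+ macrophages and 0.47 (SE 0.26, adjusted p = 0.22) in Tim-4+CD4+ macrophages, and neither passed in the fit over all 15 libraries. Fitted on the 8 libraries compared alone, both passed, at 0.66 (SE 0.09, adjusted p = 0.00072) and 0.48 (SE 0.09, adjusted p = 0.0024). The fit over all populations shares its estimate of spread with the monocytes, in which the coefficient of variation of Cxcl9 was 72.7%, against 6.81 to 12.5% in the macrophage subsets. The summed T cell markers were also lowest in Tim-4-CD4-. Over 6 genes they came to 2.56 to 5.26 CPM in Tim-4-CD4-, 7.37 to 11.1 CPM in Tim-4-CD4+ and 5.31 to 7.42 CPM in Tim-4+CD4+. Of these 6, Cd3e, Trac and Trbc2 were called higher in Tim-4-CD4+ (background 10.1% called). Only Trac was called in Tim-4+CD4+, 1 of 6 and no more than the background of 23.1%. The part of T cell RNA in the Cxcl9 difference was not tested.

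Genes of the interferon response went both ways against monocytes. Of 15 regulators and targets, 2 were higher in each subset and 8, 8 and 7 lower. The 10, 10 and 9 called stand beside a background of 65.4%, 69.8% and 70.9% called in either direction, so their number does not set the list apart. The summed level of the 15 was 2724 to 4133 CPM in monocytes and 2188 to 2478 CPM in macrophages. Irf7 averaged 504 CPM in monocytes and 124 to 147 CPM in the subsets. In Tim-4+CD4+ against Tim-4-CD4-, 4 of the 15 were called, 1 higher and 3 lower, a share near the background of 23.1%. The antiviral effector Isg15 rose by 0.78 (SE 0.19, adjusted p = 0.0055), and the receptor genes Ifngr1, Ifnar1 and Ifnar2 fell by 0.45, 0.47 and 0.26. Gbp2, a further target on the list, averaged 72.8, 40.4 and 40.4 CPM in the 3 subsets and was not among the 4 called. Its means ran in the opposite direction to Cxcl9, whereas Isg15 averaged 115, 153 and 197 CPM. The coefficient of variation of Gbp2 in monocytes was 86.5%. In Tim-4-CD4+ against Tim-4-CD4-, 2 of the 15 were called lower and 0 higher (background 10.1% called in either direction). The part of the interferon response in the Cxcl9 difference was not tested.

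Cxcl13 was highest in the Tim-4+CD4+ subset, at a low level. It had 0 counts in all 3 monocyte libraries. It stood at 0.237, 0.0838, 0.625 and 0.518 CPM in Tim-4-CD4- (13, 5, 29 and 20 counts), at 0.879, 0.278, 0.371 and 0.196 CPM in Tim-4-CD4+ (48, 11, 29 and 29 counts) and at 1.85, 1.53, 2.25 and 3.05 CPM in Tim-4+CD4+ (190, 178, 140 and 184 counts). The Tim-4+CD4+ libraries lay above all others, and the other subsets overlapped. The log2 fold change was 2.59 (SE 0.57, adjusted p = 0.0042) over Tim-4-CD4- and 2.35 (SE 0.56, adjusted p = 0.031) over Tim-4-CD4+. Against a floor of 3 counts per monocyte library, on average 0.0354 CPM, Cxcl13 was at least 10.3-fold, at least 12.2-fold and at least 61.3-fold higher in the 3 subsets. The call against Tim-4-CD4+ was lost without Tim-4-CD4+ replicate 2, 3 or 4 (adjusted p = 0.097, 0.081 and 0.095) and without Tim-4+CD4+ replicate 3 or 4 (0.054 and 0.10). Follicular dendritic cell markers, the textbook source of Cxcl13, summed to 0.503 to 1.92, 0.575 to 2.18 and 0.820 to 1.76 CPM in the 3 subsets over the 3 of 4 listed genes in the table, and none was called between subsets.

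Cxcl14 was also highest in Tim-4+CD4+ macrophages. Monocytes held 1, 0 and 1 counts. It stood at 15.9, 12.8, 12.7 and 12.9 CPM in Tim-4-CD4-, at 12.8, 14.2, 17.8 and 17.7 CPM in Tim-4-CD4+ and at 28.4, 19.1, 20.2 and 25.3 CPM in Tim-4+CD4+. All Tim-4+CD4+ libraries lay above all libraries of the other subsets. The log2 fold change was 0.78 (SE 0.15, adjusted p = 0.0013) over Tim-4-CD4- and 0.57 (SE 0.15, adjusted p = 0.048) over Tim-4-CD4+. The ratio of pooled counts to monocytes was 2030 (95% interval 561 to 16770), 2446 (677 to 20200) and 3451 (955 to 28500) in the 3 subsets. The call over Tim-4-CD4+ was lost under 8 of 15 alternatives, among them with no low-count filter (adjusted p = 0.056), in the fit on these populations alone (0.093), without Tim-4-CD4+ replicate 1, 2 or 4 (0.16, 0.14 and 0.061) and without Tim-4+CD4+ replicate 1 or 4 (0.13 and 0.14).

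Mesenchymal markers were higher in the same subset as Cxcl14 and Cxcl13. Of 7 genes, 4 were called higher in Tim-4+CD4+ than in Tim-4-CD4- and 1 higher than in Tim-4-CD4+ (background 23.1% and 3.41% in either direction), with medians of 0.57 and 0.50. The collagen gene Col3a1 rose by 0.76 (SE 0.15, adjusted p = 0.0016) and 0.73 (SE 0.15, adjusted p = 0.011). Summed over the 7 genes, the level was 61.7 to 94.2 CPM in Tim-4-CD4-, 75.5 to 97.0 CPM in Tim-4-CD4+ and 103 to 143 CPM in Tim-4+CD4+. Set against that sum in the same library, Cxcl14 amounted to 13.5 to 23.4%, 14.7 to 23.0% and 16.0 to 19.9%, and these ranges overlapped. Cxcl13 amounted to 0.136 to 0.664% and 0.255 to 1.16% of the sum in the subsets without Tim-4 and to 1.28 to 2.31% in Tim-4+CD4+, which overlapped neither. Lum and Pdgfra were at 0 in all monocyte libraries. Other lists rose too. The 8 epithelial markers summed to 12.1 to 19.8, 18.1 to 22.5 and 17.6 to 29.7 CPM in the 3 subsets. Of these, 2 were called higher in Tim-4+CD4+ than in Tim-4-CD4- and 0 than in Tim-4-CD4+. The 5 endothelial markers summed to 118 to 143, 190 to 238 and 306 to 371 CPM, with 1 called higher in each comparison. Most of that sum was Pecam1, at means of 104, 185 and 305 CPM. The part of mesenchymal, epithelial or endothelial RNA in the Cxcl14 and Cxcl13 differences was not tested.

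**Figure D2:**
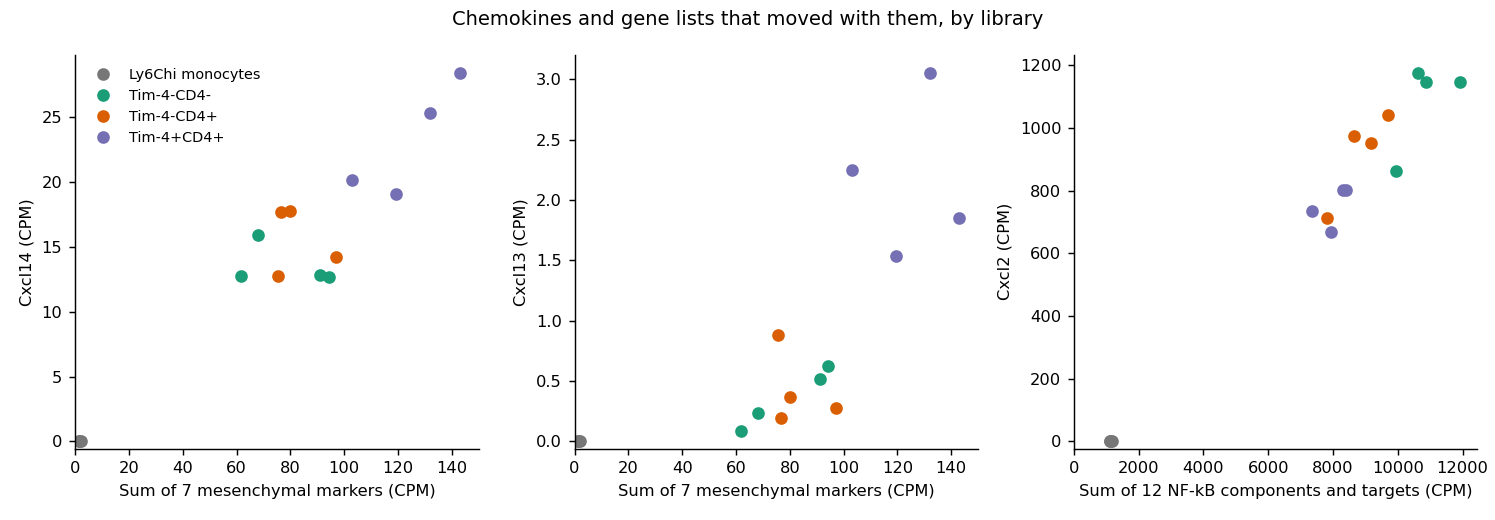
Levels in CPM by library (points, colored by population) of Cxcl14 and Cxcl13 against the sum of 7 mesenchymal markers, and of Cxcl2 against the sum of 12 NF-kB components and targets. Tim-4+CD4+ libraries, with mesenchymal sums of 103 to 143 CPM, hold the highest Cxcl14 and Cxcl13, and 3 Tim-4-CD4- libraries with NF-kB sums of 10620 to 11920 CPM hold the highest Cxcl2.

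Cxcl16 ranked 1 or 2 among the members per kb of exon in each macrophage subset. It varied least of the members in Tim-4-CD4- (coefficient of variation 4.59%) and Tim-4-CD4+ (7.18%), and by 13.2% in Tim-4+CD4+. It stood at 4.63, 3.98 and 3.59 CPM in monocytes. It stood at 1092, 1065, 987 and 1086 CPM in Tim-4-CD4-, at 1035, 1165, 1205 and 1214 CPM in Tim-4-CD4+ and at 1396, 1126, 1053 and 1102 CPM in Tim-4+CD4+. The subsets overlapped, with Tim-4+CD4+ replicate 1 the highest. The log2 fold changes over monocytes were 8.01, 8.14 and 8.16 (SE 0.16 each). Between subsets they were 0.13 (95% interval -0.09 to 0.35), 0.14 (-0.08 to 0.36) and 0.02 (-0.20 to 0.24). Adam10, a protease that sheds CXCL16 from the cell surface, was lower than in monocytes in each subset (log2 fold changes -0.62, -0.65 and -0.94), while the related Adam17 differed from monocytes by 0.09, 0.22 and 0.13, called higher in Tim-4-CD4+ (adjusted p = 0.021). Neither was called between subsets.

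Between subsets, then, the count of called members was 0 of 7 for Tim-4-CD4+ against Tim-4-CD4- (background 10.1%), 3 of 7 for Tim-4+CD4+ against Tim-4-CD4- (background 23.1%) and 2 of 7 for Tim-4+CD4+ against Tim-4-CD4+ (background 3.41%). By edgeR, the 0 had 1 member at an unadjusted p under 0.05, Cxcl9, and DESeq2 also called 0. The last count was 0 without Tim-4-CD4+ replicate 2 or 4 or Tim-4+CD4+ replicate 4. These comparisons share libraries. The members whose subsets did not overlap numbered 1, 4 and 2, while 19.1%, 26.4% and 9.63% of all genes tested did not overlap.

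**Figure D3:**
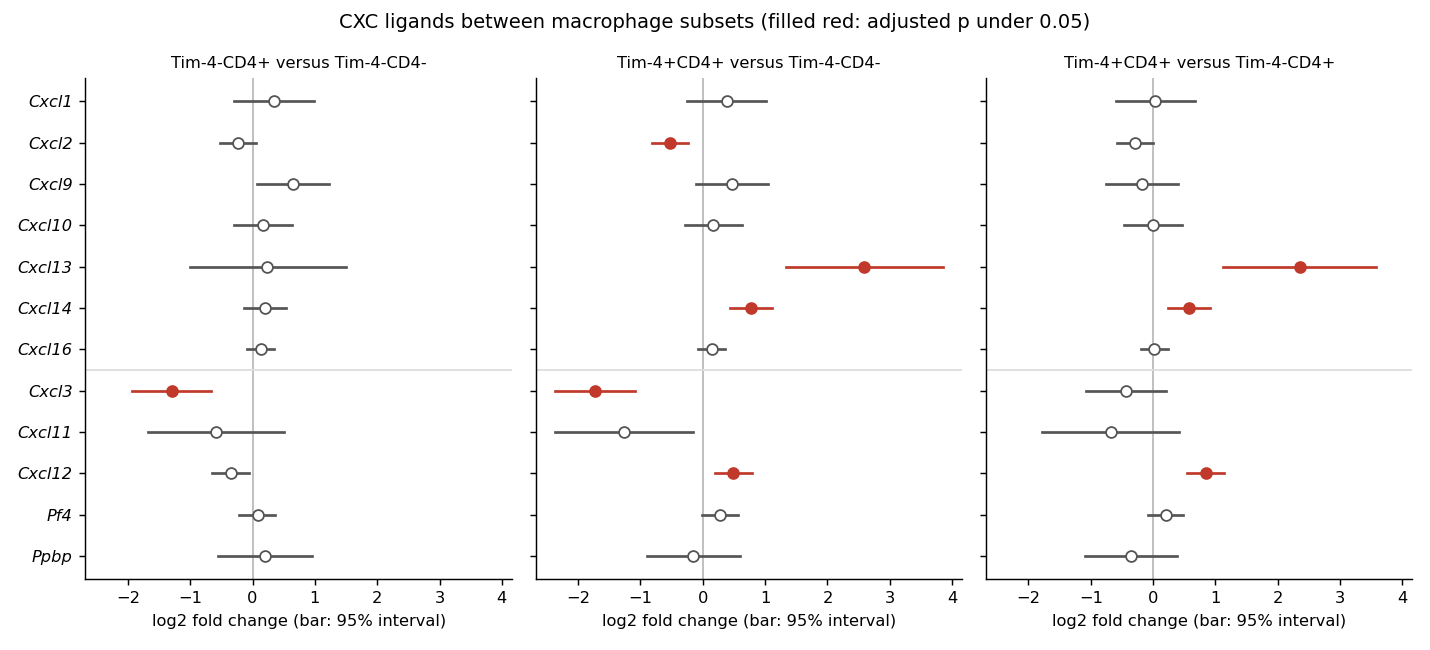
Log2 fold changes on the x axis of the 7 chemokines and 5 further CXC ligands (y axis, separated by a line) in the 3 comparisons between subsets. Points are estimates and bars 95% intervals, with filled red for adjusted p under 0.05: Cxcl13 and Cxcl14 lie to the right in both Tim-4+CD4+ comparisons, and Cxcl2 and Cxcl3 to the left against Tim-4-CD4-.

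Per length of exon, the macrophage subsets differed from monocytes in which ligand led. CPM per kb summed over the 13 CXC ligands in the table was 15.1 ± 6.12 in monocytes (SD, n = 3) and 1374 ± 131, 1413 ± 170 and 1359 ± 144 in the 3 subsets (SD, n = 4 each). Cxcl10 made up 68.6 ± 3.91% of that sum in monocytes and 13.7 to 15.6% in the subsets. Cxcl2 made up 1.94 ± 0.702% in monocytes and 38.0 ± 1.80, 31.4 ± 1.32 and 26.9 ± 1.66% in the subsets. Its shares did not overlap between the macrophage subsets, whereas its CPM in Tim-4-CD4+ (714 to 1042) overlapped with each of the other subsets. Cxcl16 made up 25.6 ± 1.52, 27.2 ± 1.70 and 28.5 ± 2.01% in the same order, and Pf4 13.8 ± 1.17, 14.1 ± 1.57 and 16.7 ± 1.22%.

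**Figure D4:**
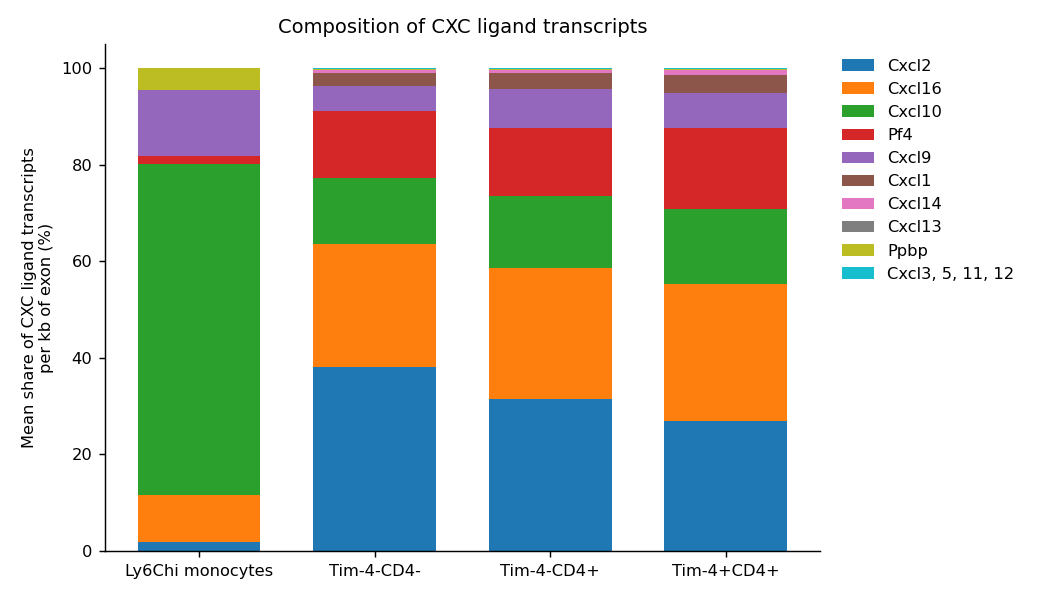
Mean share in percent (y axis) of each ligand in the CPM per kb of exon summed over 13 CXC ligands, for the 4 populations (x axis). Cxcl10 fills 68.6% of the monocyte bar, and Cxcl2 shrinks from 38.0 to 26.9% across the macrophage bars.

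The order of the members per kb in Tim-4-CD4- was Cxcl2 (524 CPM per kb), Cxcl16 (350), Cxcl10 (189), Cxcl9 (70.6), Cxcl1 (39.5), Cxcl14 (7.42) and Cxcl13 (0.318), with no overlap between neighbors. Tim-4-CD4+ kept that order, but there Cxcl2 (445) and Cxcl16 (382) overlapped. In Tim-4+CD4+ Cxcl16 (387) stood before Cxcl2 (364), again overlapping, and the rest followed as before. In monocytes the order was Cxcl10 (10.3), Cxcl9 (2.18), Cxcl16 (1.35) and Cxcl2 (0.269), of which Cxcl9 and Cxcl16 overlapped.

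The remaining CXC ligands gave 5 testable genes of 8 listed, all 5 higher than monocytes in each subset (background 37.3%, 39.1% and 39.5% called higher). Cxcl3, a further CXCR2 ligand, was lower in the CD4+ subsets. It had no count in monocytes and stood at 2.06, 4.05, 2.48 and 3.21 CPM in Tim-4-CD4-, at 1.08, 1.31, 1.25 and 1.15 CPM in Tim-4-CD4+ and at 1.33, 0.628, 0.820 and 0.763 CPM in Tim-4+CD4+. It fell by 1.30 (SE 0.29, adjusted p = 0.0094) in Tim-4-CD4+ and by 1.73 (SE 0.29, adjusted p = 0.00054) in Tim-4+CD4+ against Tim-4-CD4-. Cxcl12, the stromal ligand of CXCR4, was highest in Tim-4+CD4+ at 13.2, 11.1, 14.2 and 11.2 CPM. It rose by 0.49 (SE 0.13, adjusted p = 0.013) over Tim-4-CD4- and by 0.85 (SE 0.13, adjusted p = 0.00094) over Tim-4-CD4+, and it amounted to 6.86 to 14.4% of the mesenchymal sum across the macrophage libraries. Pf4, or CXCL4, averaged 136, 143 and 164 CPM in the subsets and was not called between them, nor were Cxcl11 and Ppbp.

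Of the CXC receptors, 0 of 7 tested were called by edgeR in any of the 3 comparisons between subsets. At an unadjusted p under 0.05 there were 2 (Cxcr2 and Cxcr6) for Tim-4-CD4+ against Tim-4-CD4-, 1 (Cxcr3) for Tim-4+CD4+ against Tim-4-CD4- and 0 between the CD4+ subsets, and DESeq2 called 1, 0 and 0, the 1 being Cxcr6. The receptor of Cxcl1 and Cxcl2, Cxcr2, averaged 0.199 CPM in monocytes and 0.0126 to 0.111 CPM in the subsets. Cxcr3, the receptor of Cxcl9 and Cxcl10, averaged 1.58 CPM in monocytes and 9.27 to 11.7 CPM in macrophages, and the CXCL12 receptor gene Cxcr4 averaged 102 and 611 to 778 CPM. Cxcr5 and Cxcr6, the receptors for Cxcl13 and Cxcl16, averaged at most 1.22 and 1.31 CPM in any subset.

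The genes whose pattern was most like each member were sought by Pearson's r of log2 CPM over the 12 macrophage libraries, among those averaging at least 1 CPM. The points share 3 subsets, so r is a description. The closest were Cerk, Traf5 and Eps8l1 for Cxcl1 (r = 0.93, 0.91 and 0.91), Mis18a, Tnfaip8l1 and Kcnd1 for Cxcl2 (0.96, 0.94 and 0.93) and Cd6, 2900026A02Rik and Gbp2b for Cxcl9 (0.96, 0.95 and 0.95). For Cxcl10 they were Zscan21, Dnd1 and Mob3c (0.91, 0.89 and 0.88). Cxcl13 went with Tcim, Timd4 and Creb3l1 (0.96, 0.94 and 0.93), of which Timd4 defined the sort. Cxcl14 went with Slc48a1, Aldh1l1 and Ushbp1 (0.95 each) and Cxcl16 with Ppp1r15a, Fuca1 and Spsb3 (0.92, 0.91 and 0.91). Among the members themselves, the highest r was 0.78 for Cxcl10 with Cxcl16, followed by 0.74 for Cxcl1 with Cxcl10, and the lowest was -0.79 for Cxcl2 with Cxcl13.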

How the data were processed

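Strand-specific paired-end mRNA libraries were made by the authors from sorted cells. Reads were trimmed with Trimmomatic 0.36, aligned with STAR to GRCm38.p4 and counted per gene with HTSeq 0.6.1p1 against GENCODE M11. The deposited table holds raw counts per gene, whole numbers without normalization. Its 15 further columns of non-whole values carry the same names and were not used.

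Groups came from the sample labels. Counts were scaled by TMM and tested with edgeR 4.0.16 (quasi-likelihood, genes kept by expression per group, R 4.3.3) in a single fit over 15 libraries, with Benjamini-Hochberg adjustment over 15802 genes and a threshold of 0.05. Intervals of log2 fold changes used SE and the t quantile at 11 residual degrees of freedom. The fitting was tested on simulated counts. Alternatives were DESeq2 1.42.0, other scaling, no low-count filter, the compared populations alone, a replicate block and leaving out each library. Exon lengths came from GENCODE M21 and promoter windows from RefSeq.

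Named genes were the 7 members, listed genes, and 3 genes most like each member. Members and lists were chosen with earlier results of these data known. Within a population, each library came from its own sort of pooled mice. Whether subsets shared a sort is not given by the labels. Intervals on counts and floors cover counting error only.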

Additional observations from a re-analysis of the deposited data

Results flagged for a closer look

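In 2 of 21 groups of 4 libraries checked, a library lay far from the other 3 relative to the range of its group, and chance flags about 1 in 20 such groups. Cxcl2 in Tim-4-CD4- replicate 3 was 864 CPM, the lowest of its subset, with a gap to the next library of 0.904 of the range. Without that library, as under the other alternatives, Cxcl2 remained called lower in Tim-4+CD4+ than in Tim-4-CD4-. Cxcl14 in Tim-4-CD4- replicate 1 was 15.9 CPM, the highest of its subset, with a gap of 0.949 of the range, and it still lay under the lowest Tim-4+CD4+ library at 19.1 CPM.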

How the results depend on the processing

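The count of called members against monocytes was 7 of 7 in every alternative run. For Tim-4+CD4+ against Tim-4-CD4- it was 3, and 4 with Cxcl9 when these populations were fitted alone. For Tim-4-CD4+ against Tim-4-CD4- the count went from 0 to 1 (Cxcl9) when the populations compared were fitted alone. For Tim-4+CD4+ against Tim-4-CD4+ it went from 2 to 1 with no low-count filter, with the populations compared alone and with a replicate block by title number, and ranged from 0 to 2 with each library left out. Of 609 values of single members, 577 kept their direction and side of the threshold, 13 lost a call, 2 gained it and 17 turned sign. None of the latter was called: leaving out libraries, Cxcl13 ranged from -0.36 to 0.65 for Tim-4-CD4+ against Tim-4-CD4-. Among Tim-4+CD4+ against Tim-4-CD4+ values, Cxcl1 ranged from -0.14 to 0.24, Cxcl10 from -0.13 to 0.08 and Cxcl16 from -0.08 to 0.08. Cxcl10 there was 0.00 with DESeq2, with RLE scaling and with a replicate block by description number, and 0.02 on library totals. Over all genes, Tim-4+CD4+ against Tim-4-CD4+ gave 539 calls, and 917 with DESeq2; Tim-4-CD4+ against Tim-4-CD4- gave 1589, and 1033 without Tim-4-CD4+ replicate 4. Other losses of calls are given beside Cxcl13 and Cxcl14. The cause was not tested.

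Over all genes, libraries with the same replicate number shared at most weak deviations, which cannot show whether subsets shared a sort. Tim-4-CD4- replicate 3 and Tim-4-CD4+ replicate 1 both carry description number 3. Each was the lowest of its subset for Cxcl1, Cxcl2, Cxcl10 and Cxcl16. The Tim-4+CD4+ library of that number was the lowest of its subset for Cxcl16 only. Deviations of same-numbered macrophage libraries correlated between -0.123 and 0.134 by title number (2 of 12 pairs over 0.1) and between -0.0888 and 0.161 by description number (4 of 12). With the replicate block by title number, Cxcl14 rose by 0.56 in Tim-4+CD4+ over Tim-4-CD4+ (adjusted p = 0.079), and no other call on a member changed. The 13, 5, 29 and 20 counts of Cxcl13 in Tim-4-CD4- limit its precision.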
